A study of Rattus norvegicus with 3 samples.

Results

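Complement was described here by 9 genes, namely C1qa, C1qb, C1qc, C1r, C1s, C2, C3, Cfb and Serping1, out of 13301 genes that could be named on the array. They were taken by name, and every probe whose RefSeq accession maps to a member was kept, which gave 13 probes of 40816. RNA of 3 rat cell populations of the F344 strain was compared, with 1 whole rat genome array each. MSCs were mesenchymal stem cells cultured on plastic from femur bone marrow and were not sorted by surface markers. COS1NR is an osteosarcoma line and MFH1NR a malignant fibrous histiocytoma line, both established from tumors induced with 4-HAQO and both stated to carry a p53 mutation. Each sarcoma is thus a single cell line, and the medium of MSCs held a larger share of serum than that of the lines.

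Complement is a cascade of plasma proteins that tags particles for uptake and can lyse cells. In the classical pathway, C1q, built from A, B and C chains, binds antibody or altered surfaces and activates the proteases C1r and C1s, which cleave C4 and C2 to form the C3 convertase. Factor B (Cfb) takes the place of C2 in the alternative pathway, C3 is the protein that both convertases cleave, and the C1 inhibitor (Serping1) blocks C1r and C1s. Liver makes most of the plasma proteins, macrophages and dendritic cells are the main source of C1q, and fibroblasts and other stromal cells can make C1r, C1s and C3.

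Each level is the processed intensity of a probe, and comparisons were made after division by the 75th percentile of its array, namely 589 for MSCs, 774 for COS1NR and 994 for MFH1NR. A share between 56.6% and 59.7% of the spots was well above background by the scanner software, and no spot was saturated. The sarcoma arrays lay on 1 slide and the MSC array on another, so comparisons with MSCs are also comparisons between slides, and these sources of difference cannot be told apart. As there was 1 array per cell type, the spread between cultures is unknown and no difference was tested. The error that the software gave to the member spots well above background was between 10% and 13.9% of their intensity. From the spread of replicate spots within arrays, an SD of 0.0742 was derived for a log2 ratio of single spots. It holds no difference between arrays, slides or cultures. Among 1891 genes with a further probe, log2 ratios to MSCs from both probes lay a median of 0.28 apart for COS1NR and 0.31 for MFH1NR, with 90th percentiles of 0.91 and 0.98. Differences of at least 2-fold were counted. Where 1 side of a comparison was not well above background, only a bound is given, set by the lowest intensity well above background on that array. These were 17.9 in MSCs, 29.4 in COS1NR and 30.1 in MFH1NR.

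The C1q chains, C2 and the C1 inhibitor were lower in both sarcomas than in MSCs, with C1qa down by at least 244-fold in COS1NR and by at least 306-fold in MFH1NR. C3 took another course, with an intensity 82.0-fold higher in COS1NR than in MSCs after scaling and 2.15-fold lower in MFH1NR. C1r and C1s were bright on all 3 arrays and brightest in COS1NR. All 9 genes passed the filter of at least 1 array well above background, C1qa through MSCs alone, Cfb through MSCs and COS1NR, and the other 7 on all arrays.

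**Figure D1:**
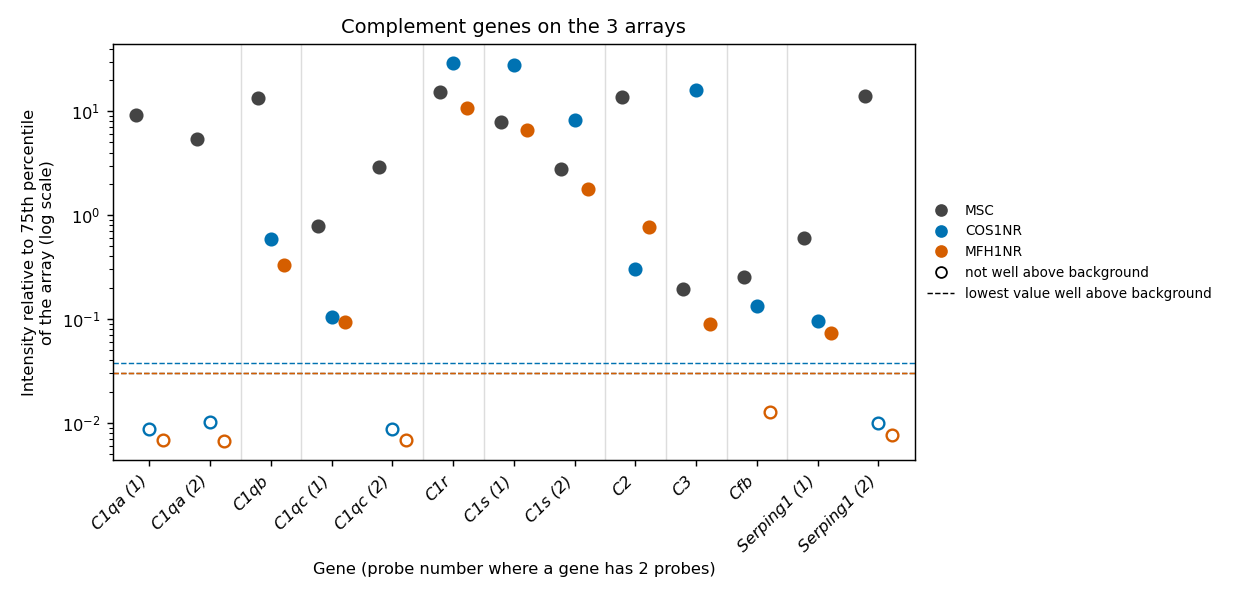
Intensity of the 13 probes of the 9 complement genes relative to the 75th percentile of each array (log axis), for MSC (gray), COS1NR (blue) and MFH1NR (orange). Open circles are spots not well above background, and dashed lines are the lowest value with that call. C1q chains, C2, Cfb and Serping1 are highest in MSC, and C3, C1r and C1s in COS1NR.

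Promoter sequences of RefSeq (GRCr8) were at hand for 4 of the 9 members, and they are shown because these genes stand for the 3 patterns seen: C1qa and C1qb were highest in MSCs, C1r was bright on every array, and C3 was high in COS1NR. Each stretch holds the 250 bases before the annotated start, written 5′ to 3′ on the strand of the gene. C1qa lies on the minus strand at chr5:154419934-154420183, C1qb on the minus strand at chr5:154407828-154408077, C1r on the plus strand at chr4:159098763-159099012 and C3 on the minus strand at chr9:2201340-2201589. Capitals mark matches on either strand to the motifs searched.
C1qa: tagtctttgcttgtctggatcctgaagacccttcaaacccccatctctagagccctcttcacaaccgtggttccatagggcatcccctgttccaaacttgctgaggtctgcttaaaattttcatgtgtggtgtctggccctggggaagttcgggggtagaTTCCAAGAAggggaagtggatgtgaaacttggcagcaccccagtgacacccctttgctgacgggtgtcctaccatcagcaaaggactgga
C1qb: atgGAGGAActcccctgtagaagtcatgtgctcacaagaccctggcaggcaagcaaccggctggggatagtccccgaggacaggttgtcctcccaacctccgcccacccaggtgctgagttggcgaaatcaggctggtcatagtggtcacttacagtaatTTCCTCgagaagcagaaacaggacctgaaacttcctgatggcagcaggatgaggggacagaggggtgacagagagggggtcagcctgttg
C1r: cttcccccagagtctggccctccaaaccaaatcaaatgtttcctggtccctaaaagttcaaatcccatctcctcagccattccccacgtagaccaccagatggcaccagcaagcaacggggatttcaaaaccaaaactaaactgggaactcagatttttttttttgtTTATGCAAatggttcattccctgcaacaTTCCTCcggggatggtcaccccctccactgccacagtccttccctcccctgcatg
C3: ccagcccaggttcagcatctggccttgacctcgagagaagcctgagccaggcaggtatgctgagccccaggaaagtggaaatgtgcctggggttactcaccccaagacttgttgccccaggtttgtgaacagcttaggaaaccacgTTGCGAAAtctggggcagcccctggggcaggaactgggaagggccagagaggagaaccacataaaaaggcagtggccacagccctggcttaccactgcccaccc

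The interferon-gamma activated site TTCNNNGAA was found in C1qa, 90 to 82 bases before the start, and in 7.67% of all 33469 promoters. The PU.1 core GAGGAA had 2 matches in C1qb and 1 in C1r, against 23.3% of all promoters with at least 1. The C/EBP form TTGCNNAA was matched once in C3, at 104 to 97 bases before the start, and once in C1r, and in 9.22% of all promoters. No match in these 4 windows was found for the core of the interferon-stimulated response element (3.41% of all promoters), the NF-kB consensus (3.54%) or TATAAA (12.9%). No overlaps occurred between the matches marked. These matches describe letters in the sequence and were not tested for binding.

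C1q is the recognition unit of the classical pathway, and its chains are encoded by adjoining genes, in the order C1qb, C1qc, C1qa with no other protein-coding gene between them. C1qa reached an intensity of 5450 in MSCs against 6.79 in COS1NR and 6.88 in MFH1NR by its brighter probe. The other probe had 3186, 7.95 and 6.60 in the same order. Both probes were thus bright in MSCs only and not well above background in either sarcoma. By the second probe, C1qa was lower by at least 142-fold in COS1NR and by at least 179-fold in MFH1NR. With normexp, the log2 bounds of the brighter probe were -6.27 and -6.36, and without scaling that in MFH1NR was -7.50.

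The single probe of C1qb reached 7846 in MSCs against 454 in COS1NR and 332 in MFH1NR. Unlike those of C1qa, all 3 spots were well above background. C1qb was 22.7-fold lower in COS1NR and 39.9-fold lower in MFH1NR, the latter a log2 ratio of -5.32 that was -4.56 without scaling. C1qc was measured by 2 probes that gave the same direction and different sizes. The probe with the higher mean over the arrays had 460.0 in MSCs against 81.8 in COS1NR and 93.9 in MFH1NR, with a decrease of 7.39-fold and 8.27-fold. These log2 ratios of -2.88 and -3.05 were -2.16 and -2.38 with normexp, and the latter was -2.29 without scaling. The other probe had 1703 in MSCs and, at 6.74 and 6.75, was not well above background in the sarcomas, where C1qc was at least 76.1-fold and at least 95.6-fold lower. For every probe of the 3 chains, both sarcomas lay below MSCs.

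C1r and C1s are the proteases carried by C1q, and their genes also adjoin each other. C1r reached 9073 in MSCs against 22540 in COS1NR and 10746 in MFH1NR. After scaling, it was 1.89-fold higher in COS1NR than in MSCs and 1.43-fold lower in MFH1NR, both under 2-fold. C1s by its brighter probe had 4670 in MSCs against 21701 in COS1NR and 6584 in MFH1NR. It was 3.54-fold higher in COS1NR and 1.20-fold lower in MFH1NR. The second probe of C1s had 1620, 6339 and 1780 in this order, with an increase of 2.98-fold in COS1NR and a decrease of 1.54-fold in MFH1NR. COS1NR was thus the highest array by every probe of both genes, while MFH1NR and MSCs were within 2-fold of each other. The small decreases in MFH1NR depended on the scaling: without it, the log2 ratios were 0.24 for C1r and 0.50 for C1s, and with spike-in scaling 0.01 and 0.26. C1r in COS1NR passed 2-fold without scaling, at a log2 ratio of 1.31, and with median scaling.

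C2, the protease subunit of the classical C3 convertase, reached 7999 in MSCs against 236 in COS1NR and 769 in MFH1NR. Both sarcomas were far below MSCs, by 44.5-fold in COS1NR and 17.6-fold in MFH1NR, the latter a log2 ratio of -4.13 that was -3.38 without scaling. Cfb adjoins C2 and encodes its counterpart in the alternative pathway. It reached 150.9 in MSCs against 102 in COS1NR and 12.7 in MFH1NR, the last of which was not well above background. Cfb was 1.94-fold lower in COS1NR, under the threshold, and at least 8.47-fold lower in MFH1NR. The log2 bound in MFH1NR, -3.08, was -2.33 without scaling and -2.08 with normexp. Its decrease in COS1NR passed 2-fold only with spike-in scaling, at a log2 ratio of -1.22.

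C3, whose cleavage is the point where all pathways meet, reached 114 in MSCs against 12240 in COS1NR and 89.2 in MFH1NR. A single array, COS1NR, was therefore bright, and the other 2 were dim but well above background. Of the 9640 genes with a ratio, 11 had a higher ratio of COS1NR to MSCs. Under all alternatives tried, the log2 ratio in COS1NR lay between 5.74 and 6.75. The decrease in MFH1NR was close to the threshold, with a log2 ratio of -1.11, and was under 2-fold without scaling (-0.35), with median scaling (-0.89), with normexp (-0.89) and with spike-in scaling (-0.58). C3 was measured by 1 probe, so no second probe bears on these values.

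The C1 inhibitor, Serping1, is a serpin that inactivates C1r and C1s and also acts on the contact system. The probe with the higher mean reached 356 in MSCs against 73.4 in COS1NR and 72.9 in MFH1NR. The other probe had 8215 in MSCs against 7.68 in COS1NR and 7.67 in MFH1NR. The former gave a decrease of 6.37-fold in COS1NR and 8.24-fold in MFH1NR. The latter, not well above background in the sarcomas, gave at least 367-fold and at least 461-fold. Both probes placed MSCs highest, and the size of the difference depended on the probe. With normexp, where the other probe became the representative, the log2 bounds were -7.08 and -7.17. Without scaling, that of the former probe in MFH1NR was -2.29.

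Of the 9 members, 5 were at least 2-fold lower in COS1NR than in MSCs, against 19.4% of all 10010 genes used. These were C1qa, C1qb, C1qc, C2 and Serping1. At least 2-fold higher in COS1NR were 2 members, C1s and C3, against 20.0% of all genes. In MFH1NR, 7 members were at least 2-fold lower than in MSCs, against 21.2% of all genes, and 0 were higher, against 19.0%. The 5 members named were lower in both sarcomas, against 12.9% of all genes, and both comparisons use the same MSC array. C1qa in both sarcomas and Cfb in MFH1NR were not well above background, so they could not have been counted higher. The members were chosen with earlier results of these data known, so these counts are descriptive only. The median log2 ratio of the members was -2.67 in COS1NR and -3.05 in MFH1NR, with C1qa and, in MFH1NR, Cfb at their bounds. The medians depended on the probe of Serping1 and C1qc, and with the other probe of a gene they were -4.50 and -4.13. The median of all genes was 0.11 and 0.02.

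The shares of all genes moved with the scaling. Without scaling, 31.6% of all genes were higher and 14.3% lower in COS1NR, and 40.6% were higher and 12.7% lower in MFH1NR. With spike-in scaling, the shares were 14.2% and 24.2% in COS1NR and 33.0% and 14.7% in MFH1NR. With median scaling, they were 24.2% and 18.1% in MFH1NR.

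**Figure D2:**
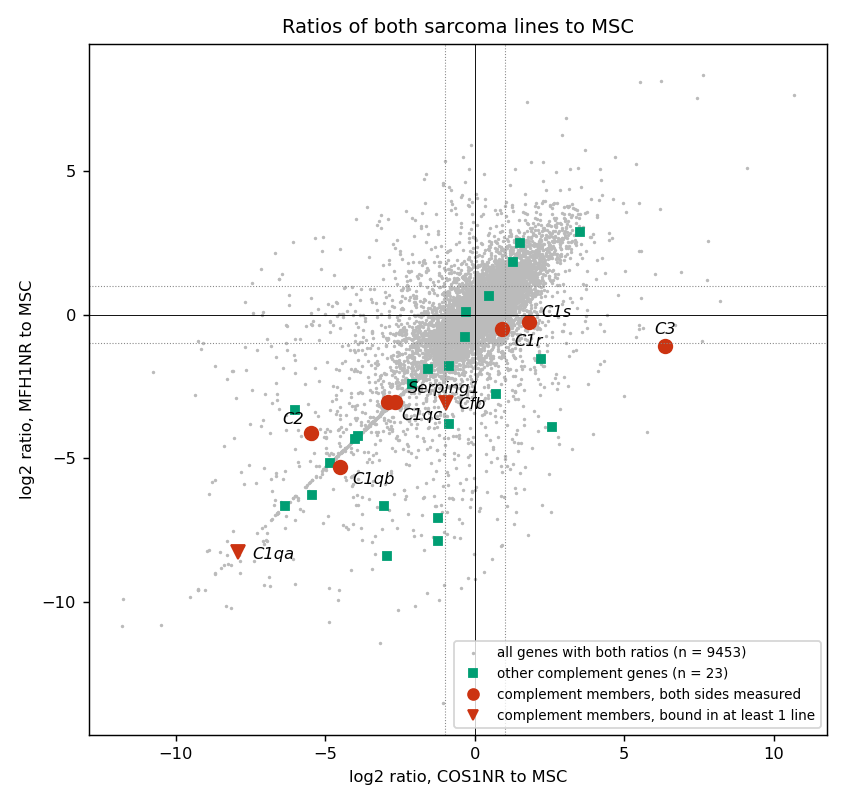
Log2 ratio to MSC of COS1NR (x axis) and MFH1NR (y axis) for 9453 genes with both ratios (gray), the complement members (red) and 23 other complement genes (green squares). Triangles are members with a bound in at least 1 line, dotted lines mark 2-fold, and the diagonal streak at lower left is formed by genes at the background bound of both sarcomas. Among the members, C3 lies farthest to the right, C1s is right of the 2-fold line, and C1qa, C1qb, C1qc, C2 and Serping1 lie at lower left.

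The sarcoma arrays share a slide, and between them the members also differed. C3 was 176-fold lower in MFH1NR than in COS1NR, and 31 of 9335 genes were lower still. Its log2 ratio of -7.46 was -6.67 with spike-in scaling and -6.63 with normexp. C1s was 4.24-fold lower by its brighter probe and 4.58-fold by the other, C1r was 2.70-fold lower, and Cfb at least 4.38-fold lower. C2 was 2.53-fold higher in MFH1NR. These make 4 members lower, against 14.2% of all genes, and 1 higher, against 11.7%. C1qb was 1.76-fold lower, C1qc 1.12-fold and Serping1 1.29-fold, all under 2-fold, while neither line had C1qa well above background. Without scaling, 9.57% of all genes were lower and 18.7% higher in MFH1NR, and with spike-in scaling 6.70% and 32.8%. C1qc turned in direction under both of these, to log2 ratios of 0.20 without scaling and 0.63 with spike-in scaling. Serping1 turned with spike-in scaling only, to 0.42, and was at -0.01 without scaling. With spike-in scaling, C1r had a log2 ratio of -0.64, under 2-fold, and C1s, Cfb and C2 had -1.29, -1.34 and 2.13.

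The rest of the cascade was read from a list of 51 genes, of which 39 had a named probe and 27 were well above background on at least 1 array, 7 of these in MSCs alone. Of all 13301 genes, 10010 were, 588 of these in MSCs alone. At least 2-fold lower than in MSCs were 12 of the 27 genes in COS1NR and 17 in MFH1NR, against 19.4% and 21.2% of all genes. Higher were 5 and 4, against 20.0% and 19.0%, which is near the share of all genes. Of the 8 other complement genes well above background on all arrays, 0 were lower in COS1NR and 4 in MFH1NR. The shares of all genes under that filter were 15.1% and 16.2%. Higher under it were 3 and 2, against 20.7% and 18.9%. Among the recognition molecules, the ficolin Fcna had an intensity of 645 in MSCs and was not well above background in the sarcomas, lower by at least 28.8-fold in COS1NR and by at least 36.2-fold in MFH1NR. The collectin Colec12 had 6026 in MSCs against 1027 in COS1NR and 18.5 in MFH1NR. Masp1, a protease of the lectin pathway, ran the other way, with 49.5 in MSCs against 159 in COS1NR and 301 in MFH1NR by its representative probe. It was 2.44-fold and 3.60-fold higher than in MSCs, and a further probe gave 1.65-fold in COS1NR. The mannose-binding lectins Mbl1 and Mbl2, Masp2, Colec10 and Crp were not well above background on any array.

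Factor D (Cfd), which cleaves bound factor B, reached 4252 in MSCs against 2369 in COS1NR and 9.75 in MFH1NR. The decrease was 2.36-fold in COS1NR and at least 239-fold in MFH1NR. Properdin (Cfp), which stabilizes the alternative convertase, was 1.81-fold and 3.46-fold lower. The pentraxin Ptx3, a ligand of C1q, had 270.9 in MSCs against 2148 in COS1NR and 6.25 in MFH1NR, so COS1NR was 6.04-fold above MSCs and MFH1NR at least 15.2-fold below. C4a had 94.6 in MSCs and was at least 4.23-fold and at least 5.31-fold lower. C4a and C4b are near copies, so which of them this probe reads is uncertain.

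Of the terminal components, which form the lytic pore, C6 was measured at 355 in MSCs only, lower by at least 15.9-fold in COS1NR and by at least 19.9-fold in MFH1NR. C9 was well above background in MFH1NR only, at 44.2, and C8a on no array. Among the soluble regulators, factor I (Cfi), a protease that inactivates C3b, had 75.9 in MSCs against 467 in COS1NR and 43.4 in MFH1NR. Factor I was 4.68-fold higher in COS1NR and 2.95-fold lower in MFH1NR, the same order of arrays as C3. Clusterin (Clu), an inhibitor of the terminal complex, was high in both sarcomas, with 1194 in MSCs against 17854 in COS1NR and 14845 in MFH1NR. The increase was 11.4-fold and 7.37-fold.

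The membrane regulators protect cells from their own complement. Cd55, which speeds the decay of convertases, had 418 in MSCs against 304 in COS1NR and 50.7 in MFH1NR. Cd59b, which blocks the lytic pore, had 2350, 5077 and 585 in this order. MFH1NR was the lowest array for both, 13.9-fold and 6.78-fold below MSCs, while COS1NR was within 2-fold of MSCs. Cr1l, the rodent regulator also called Crry, was within 2-fold of MSCs in both lines. Of the receptors, C5ar1 had 1822 in MSCs and was lower by at least 81.4-fold in COS1NR and by at least 102-fold in MFH1NR. Itgam and Itgb2, which together form complement receptor 3, were down by at least 15.0-fold and by 8.23-fold in COS1NR, and by at least 18.9-fold and at least 103-fold in MFH1NR. Cd93 was 43.5-fold and at least 77.3-fold lower, and C1qbp, a mitochondrial protein that can bind C1q, was within 2-fold of MSCs by both probes.

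**Figure D3:**
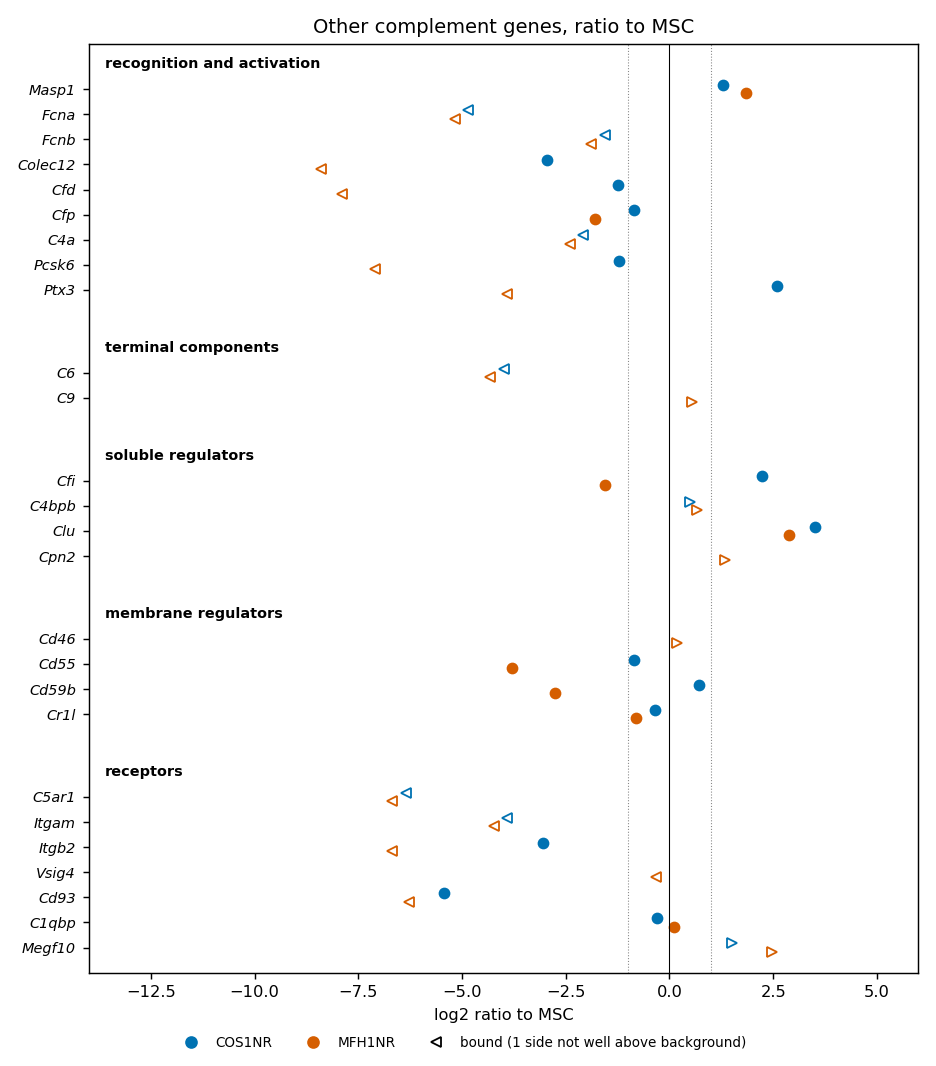
Log2 ratio to MSC of the complement genes outside the members that are reported here and had a ratio in at least 1 line, grouped by role, for COS1NR (blue) and MFH1NR (orange). Open triangles are bounds and dotted lines mark 2-fold. Clu, Masp1 and Megf10 lie above 2-fold in both lines, Ptx3 and Cfi in COS1NR only, and Cpn2 in MFH1NR only.

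Genes known to induce complement transcription were read from a list of 20, of which 18 had a named probe and 17 were used. At least 2-fold lower than in MSCs were 8 of the 17 in COS1NR and 12 in MFH1NR, against 19.4% and 21.2% of all genes, and 1 and 0 were higher, against 20.0% and 19.0%. Of those counted lower in both lines, Spi1, Tnf and Osm were well above background in MSCs alone and so passed the filter through that array. Spi1 (PU.1) is a transcription factor of macrophages and other myeloid cells. Spi1 reached 391 in MSCs against 10.9 in COS1NR and 6.33 in MFH1NR, both sarcomas not well above background. Spi1 was lower by at least 17.5-fold in COS1NR and by at least 21.97-fold in MFH1NR.

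Interferon-gamma raises C1r, C1s, C2, Cfb and Serping1 in many cell types, and Irf1 is a transcription factor that it induces. Ifng itself was not well above background on any array. Irf1 reached 6956 in MSCs against 401 in COS1NR and 625 in MFH1NR, 22.8-fold and 18.8-fold lower in the sarcomas. The cytokines IL-1 and IL-6 and the factors C/EBP and NF-kB are inducers of C3. Il1b was at least 1691-fold lower in MFH1NR and 29.6-fold lower in COS1NR by its representative probe. Il6 had 522 in MSCs against 1855 in COS1NR and 39.5 in MFH1NR, which is the order of arrays seen for C3. Cebpb was 1.62-fold lower in COS1NR and 4.86-fold lower in MFH1NR, and Cebpd 1.09-fold and 2.99-fold. Rela, an NF-kB subunit, was 2.63-fold and 2.92-fold lower.

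Markers of macrophages moved with the C1q chains. Of 15 markers on the list, 14 passed the background call in MSCs, against 7 in COS1NR and 6 in MFH1NR, where 9273, 8741 and 8863 of all 13301 genes did. Of these markers, 14 were at least 2-fold lower in both sarcomas, against 12.9% of all genes, 7 of these measured in MSCs alone. The summed scaled intensity of the list was 179 for MSCs, 12.4 for COS1NR and 4.99 for MFH1NR, with Cd14, Cd68 and Laptm5 as the main terms in COS1NR. Lyz2 had 32304 in MSCs against 23.5 in COS1NR and 15.5 in MFH1NR, and Mrc1 had 2275, 5.95 and 6.06. Marco was not well above background on any array. Cd68, a lysosomal protein, was only 2.98-fold lower in COS1NR. The part of this list in the levels of C1q, C2 and Serping1 was not tested. In these bulk cultures, fewer cells of a type and less RNA per cell cannot be told apart.

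The other lists are given by the same call and can be read against those shares of all genes. Of 7 neutrophil markers with a probe, 1 was well above background in MSCs and 3 in COS1NR, among them S100a8 at 292, and of 3 B cell markers, 1 in MSCs and 0 in the sarcomas. Of 7 T cell markers, 4 were well above background in MSCs, among them Cd3d, which was above background on all arrays. Of 6 endothelial markers, 2 were in MSCs and in COS1NR, and 1 in MFH1NR. Of 8 hepatocyte markers, 2, 1 and 3 were, and albumin (Alb) was on no array. Of 12 mesenchymal and fibroblast markers, 12 passed this call in MSCs, against 9 in COS1NR and 10 in MFH1NR, and 7 were at least 2-fold lower in both lines, against 12.9% of all genes. In COS1NR, 11 of them were at least 2-fold lower, against 19.4% of all genes. The summed scaled intensity of this list was 1415 for MSCs, 204 for COS1NR and 355 for MFH1NR. Its part in the levels of C1r and C1s was not tested.

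**Figure D4:**
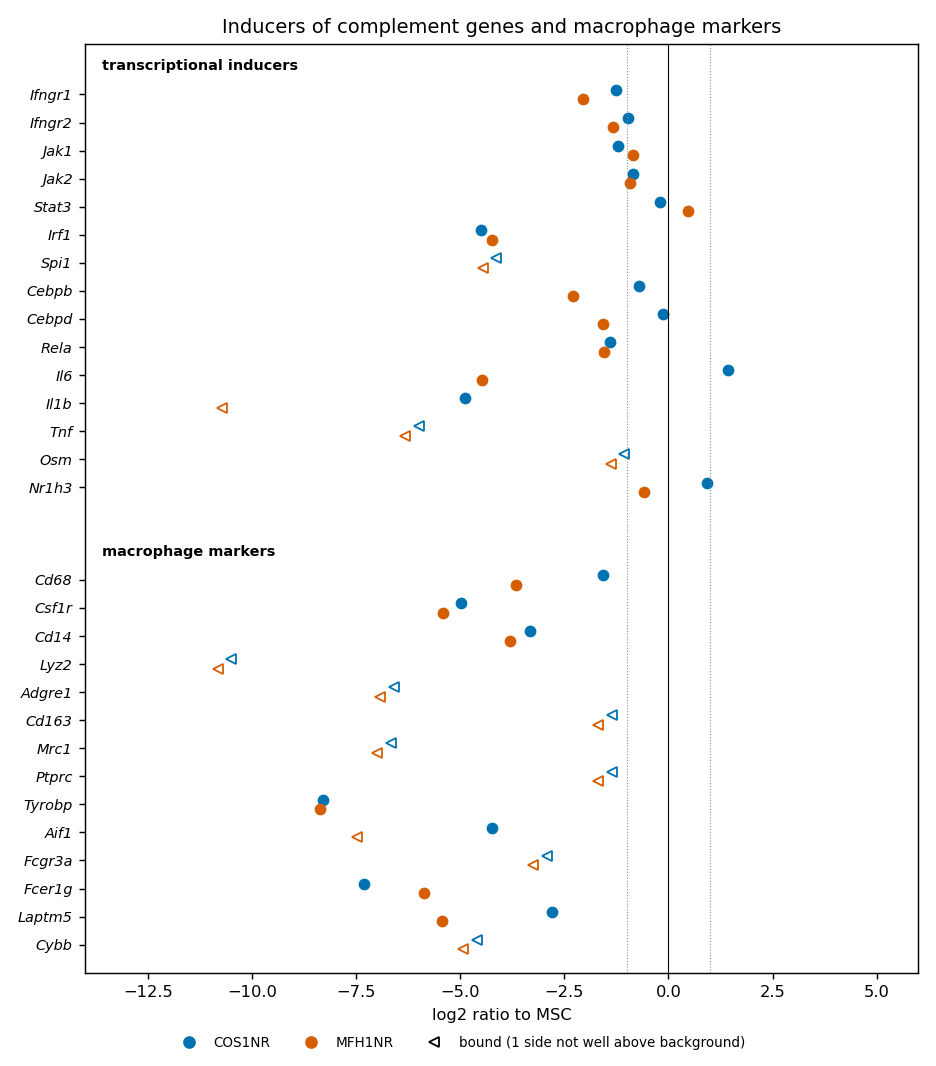
Log2 ratio to MSC of inducers of complement genes and of macrophage markers that are reported here and had a ratio, for COS1NR (blue) and MFH1NR (orange), with bounds as open triangles and dotted lines at 2-fold. All macrophage markers shown lie below 2-fold in both lines, and Il6 lies above it in COS1NR.

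The genes with the profile nearest to the mean of the C1q chains, by Euclidean distance of centered log2 values over the 3 arrays, were Ppfibp2, Lcp2, Nkd2, Csf1r and Tmem30b. These ranks rest in part on values raised to the background limit, namely those of C1qa and Tmem30b in both sarcomas and of Lcp2 in MFH1NR. The mean profile also rests on the C1qc probe with the smaller decreases, and ranks with the other probe were not computed. Csf1r, the receptor that macrophages need for survival, reached 1238 in MSCs against 51.7 in COS1NR and 48.9 in MFH1NR. Lcp2, an adaptor of immune receptor signaling, had 777 in MSCs against 29.4 in COS1NR and 6.24 in MFH1NR. Nearest to C3 were Bex2, Eif2s3y, Lcn2, Csf3 and Egln3. Eif2s3y was under the lowest intensity well above background in MSCs and MFH1NR, so its place is set by these limits. Lcn2, a siderophore-binding protein of the acute phase, had 33.9 in MSCs against 8659 in COS1NR and 23.1 in MFH1NR. Csf3, the granulocyte growth factor, had 30.4, 1673 and 20.6 in this order. In MFH1NR both were under the lowest intensity well above background. With 3 arrays, many genes share any such profile.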

How the data were processed

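Cy3-labeled cRNA of MSCs, COS1NR and MFH1NR was hybridized to 1 whole rat genome array each. The authors deposited the intensity output of Agilent Feature Extraction (version 10.5.1.1 per the file headers, 9.1 per the submitters' processing notes), background-subtracted and detrended within each array and not scaled between arrays. The deposited series table held the same intensity values on 3 of 3 arrays. The flags for signal well above background and for outlier spots (other values, 0 or 1) were deposited with them.

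Control spots and outlier spots, 187 to 217 per array, were left out, and spots of a probe were averaged on the log2 scale. Log2 intensities were set relative to the 75th percentile of each array. Probes were named through RefSeq accessions with a GRCr8 gene table, which named 16745 probes. Probe positions refer to an older assembly than GRCr8 and are not printed. For genes with several probes, that with the highest log2 intensity averaged over the arrays was taken as representative, and all probes of the members are described. Dim values were raised to the lowest intensity well above background of their array, which makes ratios to them bounds. Where neither side was well above background, no ratio was formed.

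Named are all members, genes of the complement, inducer and marker lists, and the 5 genes nearest in profile to the C1q chains and to C3. Some genes of the lists are included in the counts and are not reported here by name. The members and lists were chosen with earlier results of these data known. With 1 array per cell type no test was made, intervals between cultures cannot be given, and the number of arrays limits the precision. A total of 13 other settings were run, 2 of them added after seeing the data, the latter being a normexp correction with an offset of 50 and scaling by 7 spike-in probes. The counting step was tested on simulated data. Python 3.11.15, numpy 2.4.6, pandas 2.3.3, matplotlib 3.10.9, R 4.3.3 and limma 3.58.1 were used.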

Additional observations from a re-analysis of the deposited data

Results flagged for a closer look

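C3 moved in opposite directions in the sarcomas, each by at least 2-fold against the same MSC array, with a log2 ratio to MSCs of 6.36 in COS1NR and of -1.11 in MFH1NR. The difference between the lines was not tested, since each is 1 array, and the decrease in MFH1NR was under 2-fold under 4 of 12 alternatives.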

How the results depend on the processing

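Counts of members at least 2-fold lower or higher than in MSCs stayed within 1.5 times under every alternative that could be run, and so did those of members lower in MFH1NR than in COS1NR. No member that was at least 2-fold apart changed direction. With a 3-fold threshold, 0 members were higher in MFH1NR than in COS1NR, against 6.88% of all genes. The medians moved more. Without scaling, the median log2 ratio of the members was -2.28 in COS1NR and -2.29 in MFH1NR to MSCs, and -0.76 in MFH1NR to COS1NR. In the same order of comparisons, normexp gave -2.16, -2.38 and -1.25, and spike-in scaling -2.94, -2.53 and -0.33. Median scaling gave -2.51 and -2.83 to MSCs, and the mean of all probes -4.50 and -4.13. The other probe of a gene gave -4.50 and -4.13 to MSCs, and -1.78 in MFH1NR to COS1NR. A common floor gave -2.88 in COS1NR to MSCs and -1.43 in MFH1NR to COS1NR, and the filter for probes well above background on all arrays -0.82 in the latter. The cause of these shifts was not tested.

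Of the other complement genes at least 2-fold higher in COS1NR than in MSCs, 3 were counted with the other probe (19.5% of all genes), with the 3-fold threshold (9.46%), with normexp (14.3%) and with the all-array filter (20.7%). Higher in MFH1NR than in MSCs were 2 with normexp (14.1%) and 2 with the all-array filter (18.9%). Higher in MFH1NR than in COS1NR were 4 with no bounds (13.5%), 1 with the 3-fold threshold (6.88%), 1 with normexp (9.06%), 6 with spike-in scaling (32.8%) and 0 with the all-array filter (9.69%). That filter by construction keeps fewer genes, here 8 other complement genes and 6 macrophage markers. Of the 8, 0 were lower in COS1NR (15.1% of all genes) and 4 in MFH1NR (16.2%) than in MSCs, and 3 lower in MFH1NR than in COS1NR (12.1%). Of the 6 markers, 6 were lower in COS1NR and 6 in MFH1NR. The planned normexp on the mean spot intensity was not run and the median spot intensity was used. No paired analysis was possible because each cell type had 1 array.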
